A study of Rattus norvegicus with 18 samples.

Results

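Translation initiation factors place a ribosome at the start codon of an mRNA. The genes described here were all probe sets of the array that were annotated to exactly 1 gene whose symbol begins with Eif and a digit from 1 to 6, a rule that used the symbol and no measured value. It gave 75 of 31099 probe sets, and these represented 49 of the 14218 genes that the array names singly. A probe set was tested if 3 or more of the 18 arrays exceeded a signal of 40.8, the 40th percentile. Of the 75, 73 did, and all 49 genes kept at least 1. The probe sets left out were the second of Eif3h and of Eif4g3, at signals of 3.4 to 26.3 and 0.6 to 4.4. Each gene is given by its brightest tested probe set, and the 17 genes with more than 1 are compared at the end.

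The RNA came from whole lungs of Wistar rats on fetal day 19 (FD19, the canalicular stage), on fetal day 22 (FD22) and on postnatal day 1 (P1, 5 h after birth). Fetuses were delivered by caesarean section and newborns were born vaginally, so stage and mode of delivery cannot be told apart. With 3 independent litters per stage there were 9 lysates, which were each split for a total RNA array and an array of large-polysome RNA, from mRNAs that carried more than 7 ribosomes. The 18 arrays formed 6 groups of 3, and no animal was treated or genetically changed.

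In the textbook order of events, eIF2 carries the initiator tRNA to the small ribosomal subunit together with eIF1, eIF1A, eIF3 and eIF5. The eIF4 factors bind the cap at the 5′ end of the mRNA and unwind its leader, and eIF5B joins the large subunit. The pathway has well-known switches: the eIF2B complex recharges eIF2 with GTP and is blocked when eIF2 is phosphorylated by the eIF2 kinases, and the eIF4E-binding proteins hold back the cap-binding protein until the mTOR kinase phosphorylates them. Some mRNAs of the translation machinery begin with a 5′ terminal oligopyrimidine tract (TOP), a run of C and T bases that ties their own translation to mTOR. The large-polysome fraction is defined by the number of ribosomes on an mRNA and not by their density along it. A polysomal over total ratio here is a difference of log2 signals within a stage. The part of coding length in these ratios was not tested, so a low ratio is not read as weak translation.

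All arrays had been scaled alike, with array medians of 51.6 to 73.5, so a ratio is relative to the other mRNAs. The array numbered 1 had the lowest median in 6 of 6 groups. The number of arrays limits the precision. Changes are log2 differences with the standard error (SE) of limma from 3 arrays per group, and a gene is called where the p adjusted over all 21675 tested probe sets is under 0.05. The lung markers were present: the summed signal of 11 epithelial markers was 13389 to 14783 in total RNA at FD19 and 29860 to 35424 at FD22. In FD22 total RNA 3 endothelial markers summed to 2443 to 2685 and 4 leukocyte markers to 6039 to 9302. Markers of other organs were low in most lysates, with thymus sums of 101 to 209 and neural sums of 74.3 to 315 in total RNA. The FD22 lysate of replicate 2 stood apart, with a liver marker sum of 8106 in total RNA and 7450 in polysomal RNA. In the 8 other lysates that sum was 154 to 302 in total RNA and 89.0 to 248 in polysomal RNA, and Afp, a fetal liver marker, was at 1462 against 4.2 and 5.5 in the other FD22 total arrays. Heart marker sums varied from 636 to 2424 in total RNA and from 509 to 3854 in polysomal RNA, highest in FD22 replicate 3. Counts without the FD22 lysate of replicate 2 stand beside those it moved.

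The RNA fractions were compared first. Over the mean of the 3 stages, 15 of 49 genes were higher in polysomal than in total RNA and 14 were lower. Of all tested probe sets 18.8% were higher and 27.6% lower, 46.4% in all. Without the FD22 lysate of replicate 2 the count of genes called was 23 in place of 29. The median log2 ratio was 0.07 for the 49 genes and -0.09 for all probe sets. The split depends on the scaling. With the arrays centred on their medians the median of all probe sets became 0.11 and that of the 49 genes 0.27, and 26 genes were then higher and 6 lower. The 6 that stayed lower were Eif3a, Eif4ebp2, Eif3f, Eif3k, Eif2a and Eif3h. The share of all probe sets called with median centring is not given here. Counts under that setting, here and below, therefore have no background beside them.

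**Figure D1:**
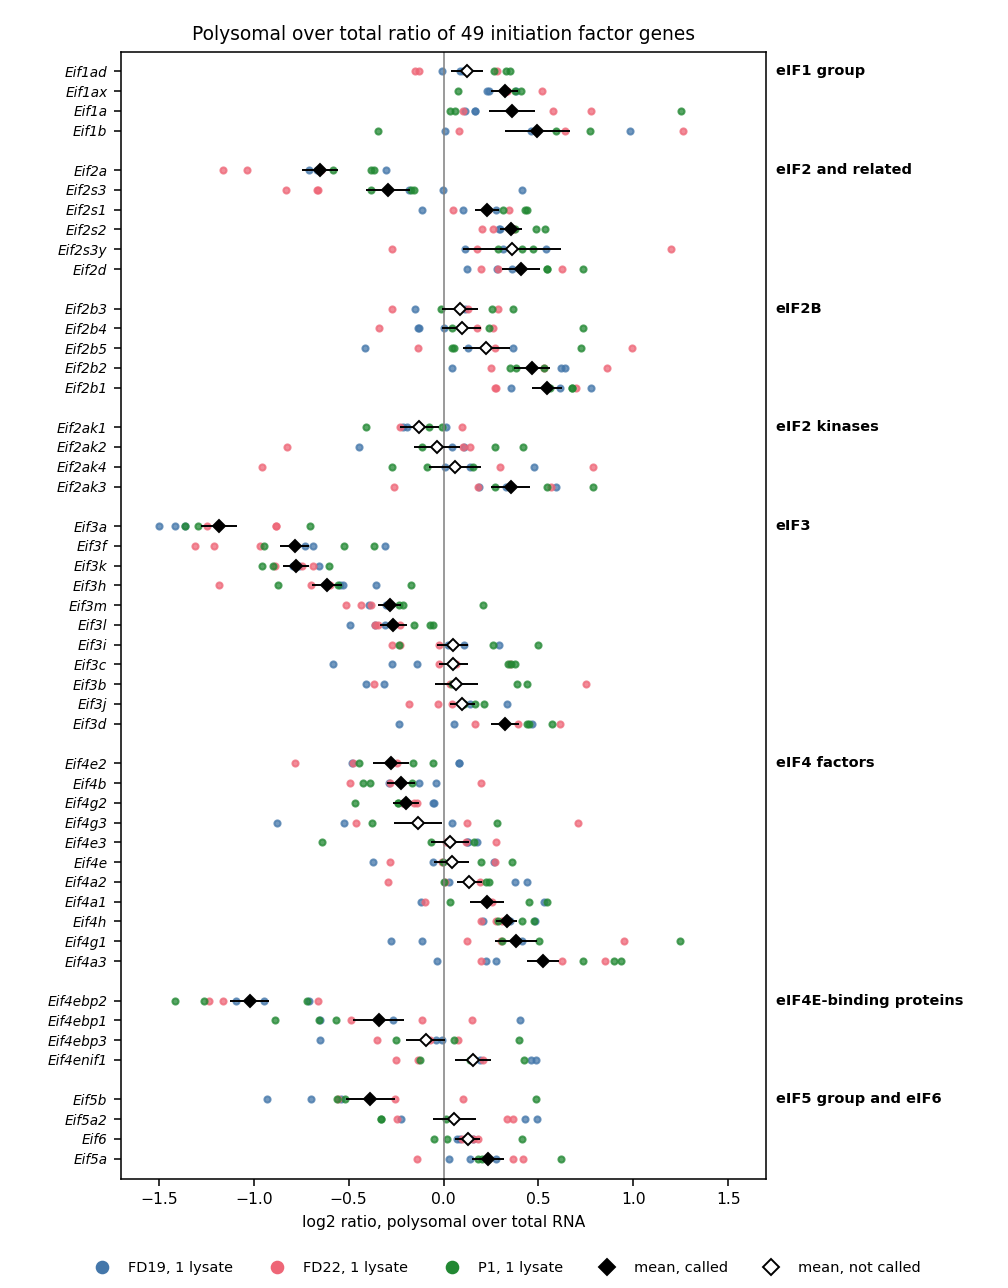
Log2 ratio of polysomal over total RNA (horizontal axis) for the 49 genes, grouped by factor and ordered within a group by the mean ratio. Coloured points are the 9 lysates, black diamonds the mean over stages with its SE, filled where called. Eif3a and Eif4ebp2 lie farthest to the left, with means of -1.18 and -1.02, and every lysate of both lies below 0.

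The subunits of eIF3, the large scaffold that keeps the small ribosomal subunit ready for initiation, were spread more widely than any other group. Of 11 subunit genes 6 had a lower ratio and 1 a higher one (4 and 4 with median centring), and the median was -0.26. Eif3a, the core subunit that organises the complex, gave total signals of 1850, 1409 and 1439 at FD19, 1081, 1034 and 1041 at FD22, and 1236, 1350 and 1312 at P1. Its polysomal signals were 716, 524 and 505 at FD19, 585, 433 and 561 at FD22, and 756, 521 and 532 at P1. Every polysomal array therefore lay below every total array. The mean ratio was -1.18 ± 0.09 (adjusted p = 1.88e-08), a fold of 0.44. By stage the fold was 0.37 at FD19, 0.50 at FD22 and 0.46 at P1.

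Eif3f, a subunit of the pair of MPN-domain proteins in the complex, had total signals of 2115, 1922 and 2070 at FD19, 2108, 2090 and 2161 at FD22, and 2125, 1966 and 2491 at P1. On polysomes it was at 1706, 1191 and 1246 at FD19, 1075, 900 and 869 at FD22, and 1474, 1526 and 1291 at P1. The total level was nearly flat while the polysomal level was lowest at FD22, and no FD22 polysomal array overlapped another stage. The mean ratio was -0.78 ± 0.08 (adjusted p = 2.62e-07). Eif3h, the other MPN-domain subunit, followed the same order, with ratios of -0.48 ± 0.14 at FD19, -0.83 ± 0.14 at FD22 and -0.53 ± 0.14 at P1 and a mean of -0.61 ± 0.08 (adjusted p = 6.24e-06).

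Eif3k, a small peripheral subunit, had the most even ratio of the group. Its total signals were 740, 775 and 686 at FD19, 527, 616 and 655 at FD22, and 679, 656 and 699 at P1, against polysomal signals of 435, 444 and 433, then 325, 365 and 351, then 361, 429 and 358. The fractions did not overlap at any stage, and the 9 lysate ratios lay between -0.95 and -0.61, with a mean of -0.78 ± 0.07 (adjusted p = 4.99e-08). Eif3m (-0.28 ± 0.06, adjusted p = 0.00113) and Eif3l (-0.26 ± 0.07, adjusted p = 0.00571) were lower by less, and neither was called with median centring (-0.08 and -0.07). The single subunit called higher by its brightest probe set was Eif3d, a subunit able to bind the cap of selected mRNAs, at 0.32 ± 0.07 (adjusted p = 0.00178). Eif3b, Eif3c, Eif3i and Eif3j, with mean ratios of 0.05 to 0.10, were not called. The other probe set of Eif3j was called higher, at 0.325. With median centring Eif3c, Eif3i and Eif3j were called higher too, at 0.25, 0.25 and 0.30.

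The regulators of the cap-binding step were led by Eif4ebp2, a binding protein that represses eIF4E. Its total signals were 813, 707 and 822 at FD19, 743, 714 and 688 at FD22, and 694, 842 and 765 at P1. Its polysomal signals were 495, 364 and 383, then 469, 316 and 289, then 419, 348 and 283. The fractions were apart at every stage, with a mean ratio of -1.02 ± 0.10 (adjusted p = 2.74e-07), a fold of 0.49. The ratio of Eif4ebp1, the related repressor, was -0.34 ± 0.13 (adjusted p = 0.0425), but that call was lost in 10 of 21 alternative settings. These included median centring (-0.14) and the omission of FD19 replicate 2 or 3, FD22 replicate 2 or 3, or any P1 replicate. Eif4ebp3 (-0.09 ± 0.10, adjusted p = 0.473) and Eif4enif1 (0.16 ± 0.09, adjusted p = 0.179), which encodes the transporter that takes eIF4E to the nucleus and to P-bodies, were not called. Eif4enif1 was called higher with median centring (0.36, adjusted p = 0.00335).

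**Figure D2:**
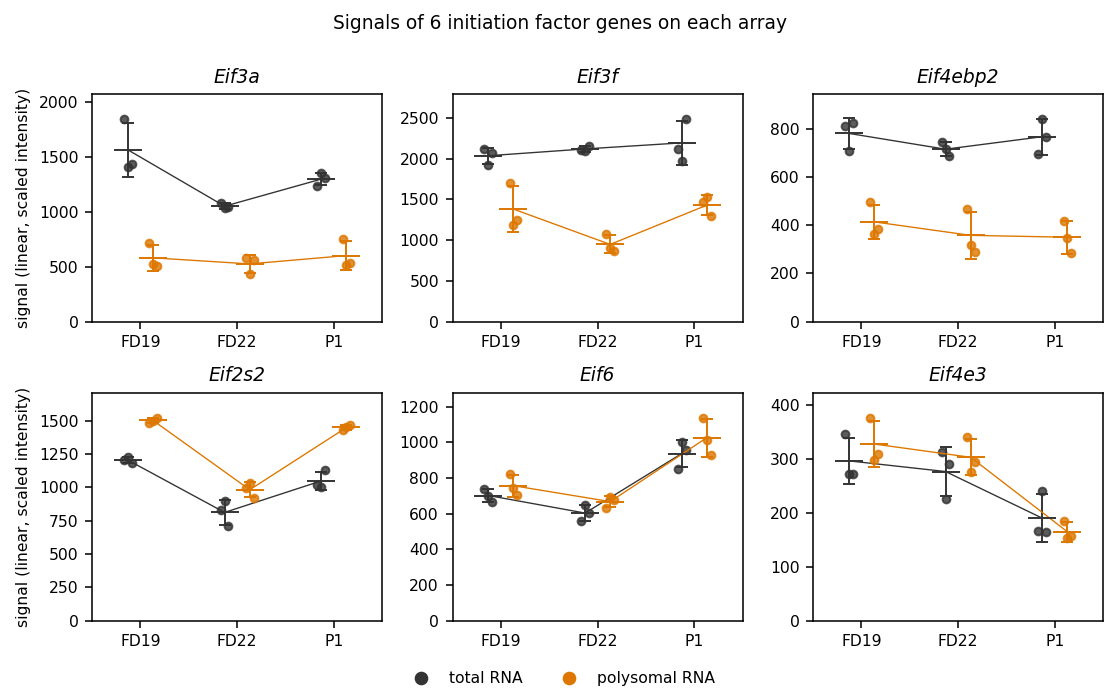
Signal on each array (vertical axis, linear scaled intensity) at FD19, FD22 and P1 for 6 genes, in total RNA (dark) and polysomal RNA (orange). Points are single arrays and bars the mean ± SD of 3. Eif3a, Eif3f and Eif4ebp2 run below total RNA on polysomes, Eif2s2 dips at FD22 in both fractions, Eif6 is highest at P1 and Eif4e3 lowest at P1.

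Genes of eIF2 and its partners were called in both directions. Eif2a, which encodes an alternative carrier of initiator tRNA and not a subunit of eIF2, was lower on polysomes in 9 of 9 lysates, at -0.65 ± 0.09 (adjusted p = 2.46e-05). Its total signals were 440, 398 and 461 at FD19, 325, 332 and 233 at FD22, and 259, 217 and 274 at P1, and its polysomal signals 275, 321 and 280, then 142, 159 and 147, then 197, 143 and 212. The alpha and beta subunits of eIF2 itself were higher on polysomes: Eif2s1 by 0.23 ± 0.06 (adjusted p = 0.00644) and Eif2s2 by 0.35 ± 0.06 (adjusted p = 9.65e-05), the latter in 9 of 9 lysates. With quantile normalization Eif2s1 was not called (0.14, adjusted p = 0.0706). Eif2s3, the gamma subunit on the X chromosome, was lower at -0.29 ± 0.12 (adjusted p = 0.0482), close to the threshold and not called with median centring (-0.09, adjusted p = 0.546). Its copy on the Y chromosome, Eif2s3y, had a ratio of 0.36 and was not called, and its total signal ranged from 64.6 to 421 within FD22. The sex of the litters is not given in the sources used here. Eif2d, another alternative tRNA carrier, was higher by 0.41 ± 0.10 (adjusted p = 0.00259) and in 9 of 9 lysates.

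The 5 genes of eIF2B, the exchange factor that reloads eIF2, all had mean ratios above 0, and 2 of them were called higher (5 with median centring). Eif2b1 gave total signals of 344, 299 and 297 at FD19, 280, 229 and 228 at FD22, and 316, 287 and 290 at P1. Its polysomal signals were 441, 516 and 456, then 340, 374 and 277, then 508, 462 and 431, and its mean ratio of 0.54 ± 0.08 (adjusted p = 2.28e-05) was the highest of the 49 genes. Eif2b2 followed at 0.47 ± 0.10 (adjusted p = 0.000683), above 0 in 9 of 9 lysates. Eif2b5, the catalytic subunit, was at 0.23 ± 0.12 (adjusted p = 0.142). Among the 4 eIF2 kinases only Eif2ak3, the sensor of the endoplasmic reticulum also called PERK, was higher (0.36 ± 0.10, adjusted p = 0.00847). Eif2ak1, Eif2ak2 and Eif2ak4, the kinases named HRI, PKR and GCN2, had mean ratios of -0.13, -0.03 and 0.06 and were not called. In the same arrays all 7 tested erythroid markers were lower in the ratio, with a median of -0.97, and their part in the values of Eif2ak1, a kinase known from red cell precursors, was not tested.

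In the eIF4 group 4 of 11 genes were called higher and 3 lower in the mean ratio (6 and 0 with median centring). The shares of all probe sets were 18.8% and 27.6%. The helicase genes Eif4a1, Eif4a2 and Eif4a3 all had mean ratios above 0. The cofactor gene Eif4b was lower by its brightest probe set (-0.22) and is described with the probe sets below. Eif4a3, a helicase of the exon junction complex, had total signals of 798, 881 and 894 at FD19, 542, 554 and 520 at FD22, and 729, 708 and 640 at P1. Its polysomal signals were 778, 1069 and 1046, then 622, 855 and 943, then 1219, 1358 and 1196. At FD19 the fractions overlapped, and at FD22 and P1 they did not. The mean ratio was 0.52 ± 0.08 (adjusted p = 7.04e-05). Eif4h, a helicase cofactor, was higher by 0.33 ± 0.06 (adjusted p = 0.000107), and Eif4a1, the main cap-dependent helicase, by 0.23 ± 0.09 (adjusted p = 0.0409). That call was lost in 8 of 21 settings, among them those without replicate 2 or 3 of any stage. Its near-copy Eif4a2 was not called at 0.14 ± 0.07 (adjusted p = 0.102), though it was called higher with median centring (0.34, adjusted p = 0.000853). The cap-binding gene Eif4e had a ratio of 0.04 ± 0.09 (adjusted p = 0.723), with lysates from -0.37 to 0.36. Eif4e was called higher with median centring (0.24, adjusted p = 0.0262). The homologue Eif4e2 was lower at -0.28 ± 0.09 (adjusted p = 0.0226), though not with median centring (-0.08).

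The eIF1 group was above 0 in the mean ratio for all 4 genes, and 3 were called (4 with median centring). Eif1ax (0.32 ± 0.07, adjusted p = 0.00104) and its relative Eif1a (0.36 ± 0.12, adjusted p = 0.0200) encode the scanning factor eIF1A. Eif1b, a copy of the start-codon factor eIF1, was at 0.50 ± 0.17 (adjusted p = 0.0252). Its FD19 polysomal signals of 566, 303 and 252 show the spread, and leaving out any of 5 lysates (FD19 replicates 1 and 2, FD22 replicate 1, P1 replicates 1 and 2) ended that call. Eif5b, the subunit-joining GTPase, was lower at -0.39 ± 0.13 (adjusted p = 0.0204), most at FD19 (-0.72 ± 0.22, adjusted p = 0.0279), where total signals of 378, 309 and 370 faced polysomal signals of 196, 211 and 226. Its mean-ratio call was lost with median centring and without FD19 replicate 1, FD22 replicate 2, P1 replicate 2 or P1 replicate 3 (values over all settings -0.50 to -0.19), and its FD19 call without any FD19 replicate. Eif5a, a factor of elongation and termination, was higher at 0.23 ± 0.08 (adjusted p = 0.0300), and Eif6, which keeps the large subunit apart from the small, was not called (0.13 ± 0.07, adjusted p = 0.121). Eif6 was called higher with median centring (0.33, adjusted p = 0.00150).

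Stage by stage, 3 genes were higher and 9 lower on polysomes at FD19, 5 and 9 at FD22, and 9 and 6 at P1. Of all probe sets 9.97%, 6.76% and 8.12% were higher and 10.9%, 8.60% and 10.4% lower at these stages. With median centring the splits were 9 and 3, 13 and 6, and 19 and 3. The shares of all probe sets under that setting are not given here, so these splits are not read as a result about the genes. Without 1 lysate of the stage 3 to 6 genes were called at FD19, 6 to 11 at FD22 and 6 to 10 at P1, in place of 12, 14 and 15. The FD19 count was 6 without replicate 1 and 3 without replicate 2 or 3. At FD22 it was 6 without replicate 2, the lysate with liver markers, and 8 without replicate 3, and at P1 it was 9 without replicate 2 and 6 without replicate 3.

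Because several of the genes with low ratios belong to the translation machinery, the promoter table of RefSeq for the present rat assembly (GRCr8) was searched for the letters of a TOP start. It held a promoter for 45 of the 49 genes (Eif3h, Eif4b, Eif4e3 and Eif4ebp1 had none). The search asked for a C followed by at least 6 bases that are each C or T, on the strand of the gene, starting within 20 bases of the annotated start. This is a loose form of the motif, since a strict TOP begins with the first base of the mRNA, and 20% of 33469 promoters held it. It was found in 12 of the 45 genes. The windows below run from 20 bases before to 20 bases after the annotated start, 5′ to 3′ on the strand of the gene, with the run in capitals, for 5 genes that were lower on polysomes in the mean ratio:
Eif3k, chr1:93397468-93397507, minus strand: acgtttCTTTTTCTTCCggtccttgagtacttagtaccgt
Eif3f, chr1:172369042-172369081, plus strand: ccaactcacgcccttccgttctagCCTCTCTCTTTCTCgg
Eif2a, chr2:144911340-144911379, plus strand: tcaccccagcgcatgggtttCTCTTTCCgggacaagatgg
Eif3m, chr3:111897174-111897213, minus strand: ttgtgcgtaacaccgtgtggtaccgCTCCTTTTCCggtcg
Eif2s3, chrX:62933680-62933719, minus strand: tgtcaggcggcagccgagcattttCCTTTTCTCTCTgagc

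In Eif2a the run opens at the annotated first base, in Eif3f and Eif3m it opens at base 5 and base 6 of the transcript, and in Eif3k it lies before the annotated start. Genes with higher ratios held such runs too, as did genes that were not called. The same window of Eif3d, Eif4h (both called higher) and Eif4g3 (not called) reads as follows, with the same marking:
Eif3d, chr7:111432721-111432760, minus strand: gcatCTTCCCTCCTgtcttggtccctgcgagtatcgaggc
Eif4h, chr12:27719672-27719711, plus strand: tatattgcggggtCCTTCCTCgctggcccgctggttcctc
Eif4g3, chr5:155534472-155534511, plus strand: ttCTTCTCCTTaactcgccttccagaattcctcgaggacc

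The genes with the lowest ratios, Eif3a and Eif4ebp2, held no such run in this window, and neither did Eif2b1 and Eif4a3, among the highest. They are shown so that the starts can be compared:
Eif3a, chr1:269919006-269919045, minus strand: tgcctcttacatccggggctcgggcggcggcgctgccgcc
Eif4ebp2, chr20:29942903-29942942, minus strand: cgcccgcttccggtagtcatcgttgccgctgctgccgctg
Eif2b1, chr12:37686555-37686594, plus strand: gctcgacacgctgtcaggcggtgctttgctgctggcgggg
Eif4a3, chr10:105057542-105057581, minus strand: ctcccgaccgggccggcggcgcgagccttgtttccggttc

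Of the 12 genes with a run 5 were lower and 3 higher in the mean ratio, with a median of -0.11, and of the 33 without one 6 were lower and 12 higher, with a median of 0.13. The ranges of both sets overlapped widely (-0.78 to 0.50 and -1.18 to 0.54), and no test was made. An E-box, CACGTG on either strand and known as a site of MYC-family factors, was present in 9 of the 45 promoters and in 6.42% of all promoters. The 9 were Eif1b, Eif3a, Eif3b, Eif3f, Eif4e, Eif4g1, Eif4h, Eif5a and Eif5a2. The E-box stretches of Eif4e, with the motif in capitals, are:
Eif4e, first: chr2:229740506-229740531, plus strand: cgccagcgacCACGTGatcacttttt
Eif4e, second: chr2:229740663-229740688, plus strand: acacgtccgtCACGTGggcaggagcc

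For total RNA at FD22 against FD19, described next, 4 of these 9 genes and 11 of the other 36 were called lower, with medians of -0.43 and -0.30. The letters TGATGNAA, a form of the site that ATF4 and C/EBP proteins share, were found in 1 of the 45 promoters, that of Eif2s2, and in 3.98% of all promoters. A match of letters shows neither binding nor a start site in this tissue.

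Between FD19 and FD22, 15 of the 49 genes fell in total RNA and 0 rose, where 7.82% and 8.42% of all probe sets were lower and higher, and 43 of 49 differences were below 0. The median difference was -0.29 for the 49 genes and 0.01 for all probe sets. The count moved with the lysates used: it was 8 without FD19 replicate 1, 7 without FD19 replicate 3, 9 without FD22 replicate 3 and 13 without the FD22 lysate with liver markers. Without the 6 arrays numbered 1 it was 7. In whole tissue, fewer cells of a type and less RNA per cell cannot be told apart.

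Eif1ax had total signals of 1080, 908 and 894 at FD19 and 612, 619 and 563 at FD22, with no overlap, a fall of 0.68 ± 0.12 on the log2 scale (adjusted p = 0.000623). The subunits of eIF2 moved beside it. Eif2s2 went from 1204, 1224 and 1184 to 828, 897 and 710 (-0.57 ± 0.10, adjusted p = 0.000623), and Eif2s1 from 1013, 920 and 915 to 632, 674 and 615 (-0.56 ± 0.11, adjusted p = 0.00144). Every FD22 array of these genes lay below every FD19 array. The helicase gene Eif4a1 went from 2530, 2072 and 2418 to 1379, 1645 and 1294 (-0.70 ± 0.15, adjusted p = 0.00345), and Eif4a3 from 798, 881 and 894 to 542, 554 and 520 (-0.67 ± 0.15, adjusted p = 0.00367). These 5 calls held in all 22 alternative settings.

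By group, 7 of 11 eIF3 genes fell, from -0.41 ± 0.11 for Eif3m to -0.65 ± 0.19 for Eif3b, while Eif3f and Eif3h were at 0.06 ± 0.13 and -0.07 ± 0.14. Among the eIF4 factors Eif4a1, Eif4a3 and Eif4e fell. The fall of Eif4e was 0.51 ± 0.16 (adjusted p = 0.0336), from 932, 1228 and 966 to 631, 839 and 723. It was lost in 9 of 22 settings. These included both quantile normalizations, the mean of its probe sets, and the omission of FD19 replicate 2 or 3 or FD22 replicate 1 or 3. Of its 3 tested probe sets 1 was called lower, and the highest value among them was 0.01. The fall of Eif3b was lost without FD19 replicate 1 or 3 or FD22 replicate 3. Eif4a2 went the other way in value by its brightest probe set only, at 0.32 ± 0.12 (adjusted p = 0.0630). Its other probe set was at -0.34 and not called. In polysomal RNA that other probe set was called lower at -0.85, and the brightest was at 0.01, so no direction is given for Eif4a2. None of the 4 eIF2 kinases, 5 eIF2B genes or 4 genes of the eIF4E-binding group was called. Markers of proliferating cells fell in the same arrays, all 14 of 14, with a median of -1.21 and a summed total signal of 8933 to 9197 at FD19 and 3240 to 4586 at FD22. Epithelial markers moved the opposite way, 9 of 11 higher. The part of either in the fall of the initiation factors was not tested.

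In polysomal RNA the same comparison gave 14 lower and 0 higher genes, with 7.70% and 8.22% of all probe sets lower and higher. The median difference was -0.26 against -0.02 for all probe sets. The 8 genes lower in both fractions, 53.3% of those called in total RNA and 57.1% of those called on polysomes, were Eif1ax, Eif2a, Eif2s1, Eif2s2, Eif3i, Eif3l, Eif3m and Eif4a1. Both fractions were split from the same lysates, and the overlap over all probe sets is not given here. The overlap is therefore not read as particular to these genes. Eif2s2 went from 1483, 1500 and 1524 to 993, 1033 and 919 (-0.61 ± 0.10, adjusted p = 0.000387), and Eif3i, a WD-repeat subunit of eIF3, from 924, 825 and 804 to 541, 472 and 417 (-0.84 ± 0.14, adjusted p = 0.000538). The polysomal arrays of FD19 and FD22 did not overlap for either. Eif2a fell by 0.94 ± 0.16 (adjusted p = 0.000584), Eif4a1 by 0.79 ± 0.15 (adjusted p = 0.00145) and Eif3m by 0.52 ± 0.11 (adjusted p = 0.00225). Of the eIF3 genes 6 of 11 were called. Without FD19 replicate 2 the count of called genes was 9, and of proliferation markers 11 of 14 fell.

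**Figure D3:**
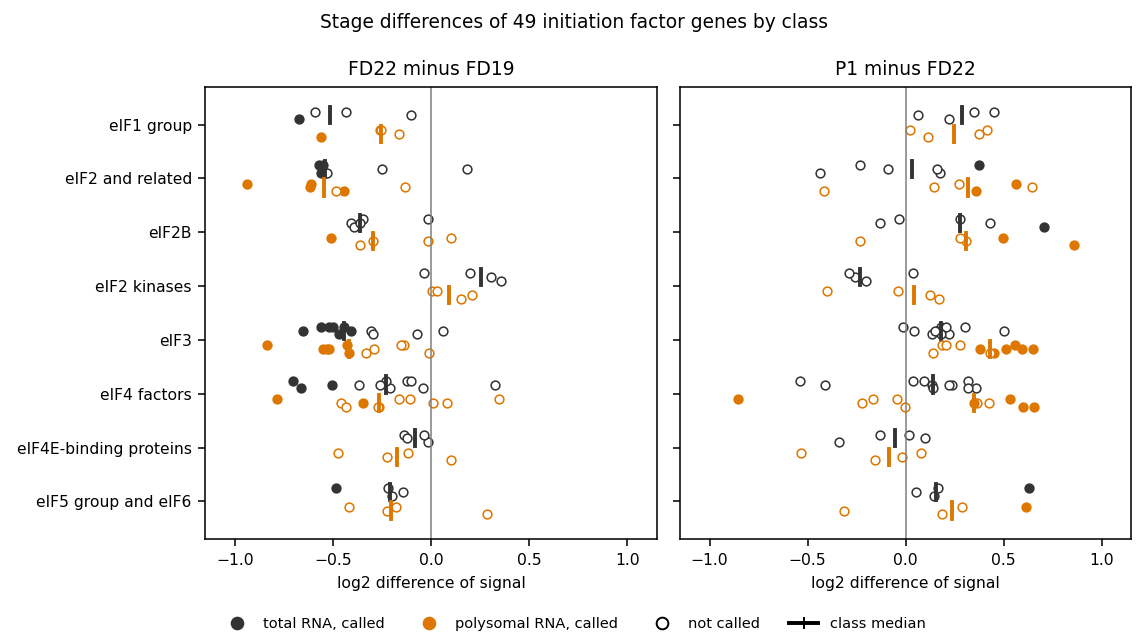
Log2 difference of signal (horizontal axis) for each of the 49 genes, by factor group, between FD22 and FD19 (left) and between P1 and FD22 (right). Dark points are total RNA and orange points polysomal RNA, filled where called, and vertical ticks mark group medians. The groups other than the eIF2 kinases have medians below 0 on the left in both fractions. The eIF3 median on the right is 0.43 in polysomal and 0.18 in total RNA.

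In total RNA 3 genes rose and 0 fell between FD22 and P1, with 2.21% and 1.76% of all probe sets higher and lower (3.97% in all), and the median difference was 0.15 against -0.05. The count was 1 without P1 replicate 3. In polysomal RNA 15 rose and 1 fell, where 3.79% and 4.55% of all probe sets did (8.34% in all), and the median was 0.28 against -0.03. The comparison shares its FD22 arrays with the one above, so a low FD22 value enters both. The polysomal count also depended on single lysates. It was 16 in both directions together. It was 8 and 10 when FD22 replicate 1 or 2 was omitted, and 8, 7 and 9 when P1 replicate 1, 2 or 3 was. It was 10 without FD19 replicate 3, which entered only through the common estimate of spread.

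Eif6 was the clearest case. Its total signals were 557, 648 and 603 at FD22 and 852, 999 and 958 at P1, and its polysomal signals 633, 694 and 674 and then 1139, 1013 and 926. All P1 arrays lay above all FD22 and FD19 arrays of their fraction. The rise was 0.63 ± 0.11 in total RNA (adjusted p = 0.00323) and 0.61 ± 0.11 on polysomes (adjusted p = 0.00260), and both calls held in all 22 settings. Eif2b3, the gamma subunit of eIF2B, rose from 103, 110 and 96.2 to 177, 176 and 160 in total RNA (0.70 ± 0.16, adjusted p = 0.0188) and from 84.7, 120 and 119 to 213, 174 and 208 on polysomes (0.86 ± 0.16, adjusted p = 0.00315). Leaving out FD22 replicate 3 or any P1 replicate ended the call in total RNA.

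Eif2s2 returned on polysomes to 1429, 1451 and 1467 (0.56 ± 0.10 above FD22, adjusted p = 0.00224). Its total signals at P1 were 1019, 999 and 1127 (0.37 ± 0.10, adjusted p = 0.0465), a call lost in 17 of 22 settings, among them the omission of any 1 of the 9 lysates. The rise of Eif2s1 on polysomes (0.36 ± 0.11, adjusted p = 0.0490) was also lost in 17 of 22 settings, among them those without any P1 replicate, any FD19 replicate, or FD22 replicate 1 or 2. Eif3m rose on polysomes from 1097, 1135 and 1139 to 1425, 1782 and 1628 (0.51 ± 0.11, adjusted p = 0.00598). Of the eIF3 genes 6 of 11 rose on polysomes and 0 of 11 in total RNA, where 3.79% and 2.21% of all probe sets were higher. All 11 polysomal differences were above 0, and so were 10 of 11 in total RNA, with medians of 0.43 and 0.18. No change of the ratio was called for an eIF3 gene. The others called on polysomes were Eif3b, Eif3c, Eif3f, Eif3i and Eif3j, with rises of 0.38 ± 0.11 to 0.65 ± 0.19. For Eif3b (adjusted p = 0.0417) the call was lost in 13 of 22 settings, among them those without FD19 replicate 2 or 3, FD22 replicate 1 or 2 or any P1 replicate. Of the eIF4 factors Eif4a1 (0.53 ± 0.15, adjusted p = 0.0363), Eif4a3 (0.66 ± 0.15, adjusted p = 0.00885), Eif4e2 and Eif4h rose on polysomes. The call of Eif4a1 was lost in 12 of 22 settings, among them those without FD19 replicate 3, FD22 replicate 1 or 3, or P1 replicate 2 or 3.

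Eif4e3, a cap-binding homologue, was the only gene called lower on polysomes between FD22 and P1. In that comparison 13 of 49 differences were below 0. Its polysomal signals were 378, 298 and 309 at FD19, 341, 276 and 294 at FD22, and 186, 153 and 157 at P1, with P1 apart from both fetal stages. It fell by 0.86 ± 0.17 from FD22 to P1 (adjusted p = 0.00460), a fold of 0.55, in all 22 settings. In total RNA its signals at FD22 and P1 were 313, 227 and 292 against 166, 242 and 164, which overlapped (-0.54 ± 0.17, adjusted p = 0.0944). Proliferation markers did not turn at birth: 4 of 14 fell further in total RNA and 4 of 14 in polysomal RNA and none rose, and their summed total signal was 2605 to 2904 at P1. Epithelial markers had a median difference of 0.08 in total RNA, with 0 of 11 called. In polysomal RNA their median was 0.25, with 1 of 11 higher. Their part in the polysomal rise of the initiation factors was not tested.

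Over the whole interval from FD19 to P1 the median difference of the 49 genes was -0.14 in total RNA, with 39 of 49 below 0, against -0.03 for all probe sets. In polysomal RNA it was -0.03, with 27 of 49 below 0, against -0.05. In total RNA 1 gene was higher and 5 lower (12.4% and 13.7% of all probe sets), and in polysomal RNA 4 were higher and 5 lower (13.1% and 15.8%, 28.9% in all). These comparisons share arrays with those above. Eif2a, Eif1ax and Eif4e3 were lower in both fractions: Eif2a by -0.78 ± 0.16 in total (adjusted p = 0.00139) and -0.67 ± 0.16 in polysomal RNA (adjusted p = 0.00457), Eif1ax by -0.45 ± 0.12 in each (adjusted p = 0.00861 and 0.00830), and Eif4e3 by -0.64 ± 0.17 and -0.97 ± 0.17 (adjusted p = 0.00948 and 0.000316). Eif2s1 and Eif3l were lower in total RNA only among the calls (-0.39 ± 0.11, adjusted p = 0.0137, and -0.51 ± 0.12, adjusted p = 0.00443), and the difference between fractions was not called for either. The call of Eif3l was lost with the mean of its probe sets (-0.35, adjusted p = 0.211), and its other probe set was lower on polysomes (adjusted p = 0.0197, a fold of 0.50) and not called in total RNA. Eif6 was higher in both, by 0.41 ± 0.11 (adjusted p = 0.0109) and 0.44 ± 0.11 (adjusted p = 0.00686). Eif2b3, Eif3c and Eif4a3 were the others higher on polysomes by their brightest probe set, at 0.50 ± 0.16, 0.44 ± 0.14 and 0.39 ± 0.15. The brightest probe set of Eif5b was not called there, at 0.47, but its 2 other probe sets were called higher, up to 1.11. Eif5a2 and Eif4ebp1 were the others lower on polysomes by their brightest probe set. The polysomal fall of Eif4ebp1 (-0.65 ± 0.23, adjusted p = 0.0394) was lost in 13 of 22 settings, among them those without FD19 replicate 1 or 3, FD22 replicate 2, or P1 replicate 1 or 2. In total RNA the calls of Eif1ax and Eif2s1 were lost without FD19 replicate 1, that of Eif4e3 without FD19 replicate 1 or P1 replicate 3, and that of Eif6 without FD19 replicate 3 or P1 replicate 2. On polysomes the call of Eif1ax was lost without P1 replicate 3 and that of Eif3c without FD19 replicate 2 or 3 or P1 replicate 1 or 3. In total RNA 3 genes were called without FD19 replicate 1, and on polysomes 5 without FD19 replicate 1 or 3 or P1 replicate 3 and 4 without P1 replicate 1.

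Whether the polysomal share itself shifted between stages was asked by the change of the ratio. None of the 49 genes passed in any of the 3 comparisons with limma's adjusted p, and 3, 3 and 4 genes had an unadjusted p under 0.05 for FD22 against FD19, P1 against FD22 and P1 against FD19. The share of all probe sets at that unadjusted threshold is not given here, so these counts are not read as a result. By adjusted p 0%, 0.0138% and 0.115% of all probe sets were called, with 0.00461% higher in P1 against FD19. The smallest p in the first 2 comparisons was that of Eif3f, whose ratio was -0.58 at FD19, -1.16 at FD22 and -0.61 at P1, so that the differences were -0.59 ± 0.19 (adjusted p = 0.999) and then 0.55 ± 0.19 (adjusted p = 0.719). Eif2s3 gave a difference of -0.80 ± 0.29 from FD19 to FD22 (adjusted p = 0.999), from 0.08 to -0.72. Its FD22 lysates were at -0.67, -0.66 and -0.83 and its FD19 lysates at -0.18, 0.41 and 0.00. Eif3m and Eif2a had differences of 0.36 ± 0.15 (adjusted p = 0.980) and 0.50 ± 0.23 (adjusted p = 1.00) from FD22 to P1.

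From FD19 to P1 the ratio of Eif3c went from -0.33 to 0.36, a difference of 0.69 ± 0.19 (adjusted p = 0.178). Its FD19 lysates were at -0.58, -0.14 and -0.27 and its P1 lysates at 0.36, 0.34 and 0.38, with no overlap. Eif4a3 went from 0.16 to 0.86, with FD19 lysates at -0.04, 0.28 and 0.23 and P1 lysates at 0.74, 0.93 and 0.90, a difference of 0.70 ± 0.21 (adjusted p = 0.205). Eif4g1 gave 0.68 ± 0.27 (adjusted p = 0.391). None of these passed the adjustment over all probe sets. The SE of a ratio change was 0.14 to 0.63, so that a moderate shift in most of these genes was not detectable with 3 lysates a stage. The ratio change from FD22 to P1 had a median of 0.18 over the 49 genes and 0.01 over all probe sets, with 32 of 49 above 0.

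The scaffold and helicase genes with several probe sets bear on how far a single gene value can be read. For 17 genes with more than 1 tested probe set, the calls opposed each other in 1 gene for the mean ratio and in 0 genes for each of the other 12 comparisons. The gene was Eif4g1, which encodes the scaffold that joins the cap-binding protein to eIF3. Its brightest probe set had total signals of 633, 451 and 524 at FD19, 426, 410 and 394 at FD22, and 428, 563 and 378 at P1, and polysomal signals of 521, 602 and 483, then 464, 507 and 766, then 610, 698 and 905. It was higher on polysomes, at 0.38 ± 0.11 (adjusted p = 0.00883). The 3 other probe sets, with mean total signals of 46.7 to 139, were lower, at -0.54 ± 0.13, -0.71 ± 0.18 and -0.82 ± 0.18 (adjusted p = 0.00181, 0.00342 and 0.00110). With the mean of its probe sets the gene was at -0.42, so no direction is given for Eif4g1.

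**Figure D4:**
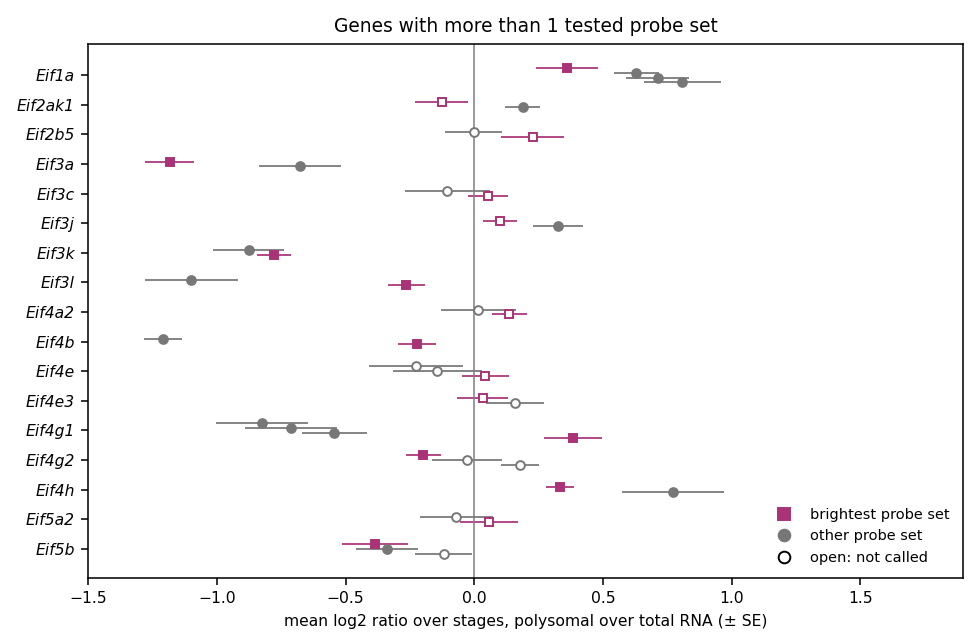
Mean log2 ratio of polysomal over total RNA (horizontal axis, ± SE) for every tested probe set of the 17 genes that have more than 1. Squares are the brightest probe set and circles the others, open where not called. The 4 probe sets of Eif4g1 lie on both sides of 0, and those of Eif4b lie at -0.22 and -1.21.

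Other genes differed in size. Eif4b, a helicase cofactor whose mRNA is a known TOP mRNA, was at -0.22 ± 0.08 by its brightest probe set and at -1.21 ± 0.07 (adjusted p = 5.26e-10) by the other, whose mean signals were 597 to 703 in total and 257 to 328 in polysomal RNA. With median centring the brightest was at -0.02 (adjusted p = 0.851). Eif3l was at -0.26 ± 0.07 and -1.10 ± 0.18, and Eif3a at -1.18 ± 0.09 and -0.68 ± 0.16. All 4 probe sets of Eif1a were higher, from 0.36 to 0.81. For Eif4g2, a scaffold homologue without the cap-binding site, the brightest was lower at -0.20 ± 0.07 (adjusted p = 0.0211; not called without FD19 replicate 3 or P1 replicate 3) and the others were not called at 0.18 and -0.03, the mean of the probe sets was -0.02, and with median centring the brightest was at 0.00. The brightest probe set of Eif2ak1 was not called (-0.13 ± 0.10) and the other was higher (0.19 ± 0.07, adjusted p = 0.0295). Eif4g3 had 1 tested probe set, at -0.14 ± 0.13 (adjusted p = 0.392).

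Of 40 genes listed as regulators and partners of initiation outside the symbol rule, 35 were tested. Between FD19 and FD22 in total RNA 2 rose and 4 fell, with a median of -0.14, near the background of 8.42% higher and 7.82% lower among all probe sets. The fallers were Pabpc4, a poly(A)-binding protein (-0.74 ± 0.12, adjusted p = 0.000359), Abce1, a ribosome recycling factor (-0.57 ± 0.12, adjusted p = 0.00273), Rps6kb1, the S6 kinase (-0.51 ± 0.14, adjusted p = 0.0152), and Ncbp1, a subunit of the nuclear cap-binding complex (-0.38 ± 0.13, adjusted p = 0.0492). Sesn1 and Ddit4, inhibitors of mTOR signalling, rose by 0.91 ± 0.26 and 0.64 ± 0.20. Between FD22 and P1 in total RNA 3 rose and 1 fell, where 2.21% and 1.76% of all probe sets did. Ddit4 fell by 1.87 ± 0.20 (adjusted p = 1.81e-05), and Ppp1r15a, a phosphatase subunit that reverses eIF2 phosphorylation, rose by 0.65 ± 0.16 (adjusted p = 0.0265). Ddx3x, a helicase, and Atf4 rose by 0.47 ± 0.12 and 0.65 ± 0.18.

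In the mean ratio 8 of the 35 were higher and 9 lower, with a median of 0.02, where 18.8% and 27.6% of all probe sets were higher and lower, so the count lies near that background. Mettl3, an RNA methyltransferase (1.19 ± 0.21, adjusted p = 0.000200), and Ncbp2 (0.67 ± 0.08, adjusted p = 2.63e-06) were higher, as was the adaptor Nck1 (0.40 ± 0.08). Pabpc4 (-0.81 ± 0.07, adjusted p = 6.17e-08), Atf4, whose leader holds upstream reading frames (-0.75 ± 0.10, adjusted p = 1.01e-05), and Tsc2 (-0.64 ± 0.15) were lower. No ratio change was called for any of the 35 by limma, as for the initiation factors.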

How the data were processed

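Whole-lung total RNA and large-polysome RNA of 9 rat lung lysates were measured on 18 Affymetrix Rat Genome 230 2.0 arrays. The authors deposited 1 linear intensity per probe set and array, made with GCOS 1.4 per the submitters' processing notes; the algorithm behind the signal is not given in the sources used here, and raw images were not used. All arrays had nearly the same 2% trimmed mean, so the values were taken as globally scaled and were not scaled again.

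Samples were grouped by RNA fraction and stage as labelled. Signals were analysed as log2(signal + 5.5), the 10th percentile of all values, so that folds of dim genes are understated. After 57 array controls and dim probe sets were left out, 21675 probe sets were fitted with 6 group means and contrasts in limma 3.58.1 (lmFit, eBayes with a variance trend, 12 residual degrees of freedom, R 4.3.3), with Benjamini-Hochberg adjustment over all of them. The script was tested on simulated data. The lists, the members and the alternatives were chosen with earlier results of these data known. Of the array's probe sets 20826 named 1 gene, 436 several and 9780 none; all 75 member probe sets matched a RefSeq gene (GRCr8) by Entrez identifier and 0 symbols changed.

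Named genes were, for each stage comparison in each fraction, up to 5 called genes with the smallest p, for the mean ratio the 6 highest and 6 lowest called, for a ratio change the 3 with the smallest p, and a fixed set of core factors. Eif1 and Eif5 of that set had no probe set of their own. Other called genes are named within their group, some after their values were seen. Total and polysomal arrays of a lysate are pairs by design, and the deviation of the 2 arrays from their groups was positively correlated in 9 of 9 lysates (r of 0.186 to 0.488). Nothing in the labels pairs the numbers across stages, and all 3 correlations were above 0.1 for polysomal FD19 with FD22 (0.226 to 0.498) and total FD19 with P1 (0.119 to 0.313). Within each fraction the arrays numbered 1 correlated at 0.313 to 0.498 in every pair of stages. Those numbered 2 or 3 correlated at -0.031 to 0.287. The part of the array number in the correlations within lysates was not tested. Python 3.11.15 with numpy 2.4.6, pandas 2.3.3 and matplotlib 3.10.9 made the tables and figures. Proteins were not analysed here.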

Additional observations from a re-analysis of the deposited data

How the results depend on the processing

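Alternatives were the constant added (0.9 or 26.3), no filter, a filter at 96.4, quantile normalization over all arrays or within a fraction, median centring, no variance trend, array weights, the mean of a gene's probe sets, only arrays of that fraction, the replicate as a block, only arrays numbered 2 and 3, and leaving out each lysate. The count of called genes for the mean ratio stayed within 22 to 32 (29 in the report), and for the ratio changes it was 0 under every setting. The other counts moved as follows. With arrays numbered 2 and 3 only, FD22 against FD19 gave 7 genes in total and 8 in polysomal RNA, P1 against FD22 gave 6 in polysomal RNA, and P1 against FD19 gave 4 in polysomal RNA. With array weights, P1 against FD19 gave 11 in total RNA, P1 against FD22 gave 10 in polysomal RNA, and the ratio gave 19 at FD19 and 8 at FD22. For P1 against FD22 in polysomal RNA the count was also 10 without a filter, 10 without the variance trend and 7 with only polysomal arrays. Leaving out a lysate gave 7 to 16 (total, FD22 against FD19), 1 to 3 (total, P1 against FD22), 3 to 7 (total, P1 against FD19), 9 to 14 (polysomal, FD22 against FD19), 7 to 14 (polysomal, P1 against FD22), 4 to 11 (polysomal, P1 against FD19), 3 to 12 (ratio at FD19), 6 to 13 (ratio at FD22), 6 to 17 (ratio at P1), 22 to 27 (mean ratio) and 0 for the ratio changes. The cause of these moves was not tested, and the settings that leave out arrays also have fewer of them.

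With the lysate as a replicate block 15, 17 and 19 genes were called in the ratio at FD19, FD22 and P1 and 30 in the mean ratio. With the number as a block, FD22 against FD19 gave 16 in total and 17 in polysomal RNA and P1 against FD22 gave 3 and 16, and P1 against FD19 gave 8 and 12. No block moved a count by more than 1.5 times. For named genes 1430 of 1612 values kept their direction and side of the threshold, 179 lost the call and 3 reversed: with the mean of probe sets Eif4g1 in the mean ratio (-0.42) and in the ratio at P1 (-0.22), and with median centring Eif4g2 in the mean ratio (0.0015). A dim probe set carries less signal over background, and its fold is understated by the constant added.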

Other observations

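Probe sets that name an initiation factor together with another gene fell outside the symbol rule, and all 5 were tested. The probe set shared by Eif3e, a further eIF3 subunit, and the copy Eif3el1 was lower on polysomes at each stage and in the mean ratio (-0.71 ± 0.06, adjusted p = 7.63e-08 by limma). The probe set shared by Eif2s3 and Eif2s3y was lower at -0.86 ± 0.16 (adjusted p = 0.000295), and not called at FD19. Of 3 probe sets shared by Eif5, which triggers GTP hydrolysis at the start codon, and its pseudogene Eif5-ps1, the probe set with the smallest p rose between FD22 and P1 by 0.69 ± 0.11 in total RNA (adjusted p = 0.000999) and by 0.58 ± 0.11 in polysomal RNA (adjusted p = 0.00273). Its mean ratio was 0.39 ± 0.06 (adjusted p = 5.64e-05), and a second probe set gave 0.39 ± 0.07 (adjusted p = 0.000385). These probe sets cannot tell the gene from its copy.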
